A study of Homo sapiens with 47 samples.

Results

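The locus of CISH on human chromosome 3 was followed through ChIP-seq for the HA tag of dCas9 fusions, for H3K27ac and for RNA polymerase II (RNAPII). Its members were chosen by position. They are the 6 regions on chromosome 3 of 23 regions in the table of normalized signal (CISH-1, CISH-2, CISH-3, CISH-A, CISH-B and the CISH promoter), and 238 of 959683 peaks that were called in 47 libraries and fell in hg19 chr3:50560000-50680000. All libraries came from Ishikawa cells, a human endometrial adenocarcinoma line, which were kept in hormone-depleted medium for at least 5 days and were then transfected transiently with plasmids for a dCas9 fusion and for gRNAs, so that control and targeted cells alike were depleted of estrogen. The fusion was dCas9-VP16(10x), which carries copies of a viral activation domain, or dCas9-p300(core), which carries the catalytic core of a histone acetyltransferase. The gRNAs of Pool 1 included those for CISH-1, those of Pool 2 CISH-2 and those of Pool 3 CISH-3, which are sites that estrogen receptor α binds when estrogen is present (ERBSs). The Adjacent pool included CISH-A and CISH-B, regions near the ERBSs, the ERBS pool was Pools 1, 2 and 3 together, and gRNAs for the IL1RN promoter on another chromosome were the control. No pool held gRNAs for the CISH promoter.

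CISH encodes a member of the SOCS family, proteins with an SH2 domain and a SOCS box that are induced by cytokine signaling and dampen it. Cytokine and hormone receptors activate JAK kinases, these phosphorylate STAT5, and STAT5 binds TTC-N3-GAA elements of the CISH promoter, so that CISH acts in a negative feedback loop. H3K27ac marks active promoters and enhancers, and RNAPII is found at transcribed genes and at many active enhancers.

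H3K27ac and RNAPII were each measured in 20 libraries, 2 for each of 5 pools with each fusion, and HA in 7. Per library, H3K27ac gave 348 to 6999 reads over the 23 regions, of which 49 to 1745 fell in the 6 CISH regions. RNAPII gave 819 to 3472, of which 207 to 759 were in the CISH regions, and HA gave 468 to 38238, of which 166 to 13070 were. For HA, dCas9-VP16(10x) had 1 IL1RN library, 2 Adjacent libraries and 2 ERBS columns, and dCas9-p300(core) had 2 ERBS libraries and no control of its own. The pair of dCas9-VP16(10x) ERBS columns, 1 of them with duplicate reads removed, differed by less than the sampling noise over non-targeted regions (chi-square p = 1.000) and was counted as 1 sample, whereas 21 of 23 replicate pairs differed at p under 0.05. The other pair that did not differ, RNAPII dCas9-VP16(10x) IL1RN (chi-square p = 0.773), was kept as 2 samples. By its label, H3K27ac dCas9-VP16(10x) Adjacent replicate 1 also carried IL1RN gRNAs. The title of H3K27ac dCas9-VP16(10x) Pool 1 replicate 2 names that fusion, but its column and peaks carry the letter used for dCas9-p300(core). Some peak names open with a number shared by many libraries, called an identifier here, and no label says what it marks. For H3K27ac, 11 libraries carried 1 identifier and 9 carried none. For RNAPII, all 10 dCas9-p300(core) libraries carried that identifier, 7 dCas9-VP16(10x) libraries carried another, and replicate 2 of Pools 1, 2 and 3 with dCas9-VP16(10x) carried none, so that fusion and identifier cannot be told apart. For HA, both dCas9-p300(core) libraries and Adjacent replicate 2 carried it, whereas the control did not, so that every dCas9-p300(core) value was compared with a control outside its set. Libraries with no identifier are treated below as 1 set, which no label states. Nothing states that replicates were separate cultures, and p-values then measure the spread between these libraries only. Intervals and floors on reads cover counting error only.

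The regions lie in hg19 and each spans 2000 bp. The CISH promoter region (chr3:50648074-50650074) covers the start of CISH, which is read from the minus strand, and that of MAPKAPK3, a kinase gene read from the plus strand whose start is 254 bp from that of CISH. The MAPKAPK3 start lies inside CISH, so the genes overlap. CISH-A (chr3:50646137-50648137) lies inside CISH, over exon, coding and UTR sequence, with its center 2068 bp from the CISH start, and shares 63 bp with the promoter region. CISH-1 (chr3:50641718-50643718) is intergenic and ends 202 bp short of the 3′ end of CISH, 6487 bp from the CISH start by its center. CISH-2 (chr3:50637663-50639663, center at 10542 bp) covers an exon and the start of the non-coding gene ENSG00000280382. CISH-B (chr3:50630832-50632832, center at 17373 bp) overlaps an exon and UTR of HEMK1, a methyltransferase gene. CISH-3 (chr3:50575007-50577007, center at 73198 bp) is intergenic. All 5 targeted regions thus lie downstream of the CISH start, and the gap between CISH-2 and CISH-1 is 2055 bp.

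Each targeted region had 4 gRNAs, and each of the 20 gRNAs had 1 exact match in hg19, inside its own region. The gRNAs for the ERBSs are shown because the peaks below are placed against them, with the PAM that follows the 20-base target in capitals.
CISH-1 (396): gtcacctagcggatgggtagTGG
CISH-1 (502): tgaggaactgtaaataccccTGG
CISH-1 (539): cctggaggaagcgtgccatcTGG
CISH-1 (586): gccgccgccagtaacagggaAGG
CISH-2 (468): agctcagaagtggcgggtggAGG
CISH-2 (523): actggttgctcaacgtgatcTGG
CISH-2 (550): gagaagcgttgaaggcagtgTGG
CISH-2 (614): cgccgcttccaagaactcagAGG
CISH-3 (174): agaaacatgactccagaataCGG
CISH-3 (199): gaagggcagagtgacctgcaAGG
CISH-3 (250): ttctccccgaaagtggtcatAGG
CISH-3 (281): ggtttgcttggctaggagagGGG
The number in parentheses is that of the gRNA in the design list. The gRNAs spanned 213 bp at CISH-1, 169 bp at CISH-2 and 130 bp at CISH-3, against 567 bp at CISH-A and 532 bp at CISH-B.

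Estrogen receptor α binds the estrogen response element GGTCANNNTGACC. The best match in each ERBS is shown with its 13 bases in capitals and 24 bases on each side, on the plus strand.
CISH-1 (chr3:50642697-50642709, 0 mismatches): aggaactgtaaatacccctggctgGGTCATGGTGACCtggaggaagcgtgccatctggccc
CISH-2 (chr3:50638640-50638652, 2 mismatches): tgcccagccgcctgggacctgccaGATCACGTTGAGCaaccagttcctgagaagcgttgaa
CISH-3 (chr3:50575964-50575976, 1 mismatch): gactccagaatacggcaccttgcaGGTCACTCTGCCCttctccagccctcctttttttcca
The nearest gRNA cut position lay 16 bp from the center of the element of CISH-1, 3 bp from that of CISH-2 and 7 bp from that of CISH-3, so the fusions were directed onto or beside these letters. CISH-2 held a further match with 2 mismatches, and the best matches of CISH-A, CISH-B and the CISH promoter had 2, 3 and 3. An exact element was found in 2 of 23 regions (8.70%) and one with at most 1 mismatch in 5 of 23 (21.7%), both strands searched. AP-1 elements (TGANTCA) were found once each in CISH-1 and CISH-3 and in 12 of 23 regions (52.2%). TTC-N3-GAA elements, searched as TTCNNNGAA, numbered 5 in the CISH promoter, 4 in CISH-2, 1 each in CISH-1 and CISH-B and 0 in CISH-A and CISH-3, and 10 of 23 regions (43.5%) held at least 1.

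The stretch upstream of the CISH start up to the nearest MAPKAPK3 exon is shown because the RNAPII peaks of the CISH promoter, merged over libraries, covered it, with its STAT elements in capitals.
CISH promoter (chr3:50649206-50649338, minus strand): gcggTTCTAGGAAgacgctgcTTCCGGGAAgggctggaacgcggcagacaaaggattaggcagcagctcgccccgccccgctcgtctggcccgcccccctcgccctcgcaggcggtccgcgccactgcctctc
The first bases of the elements lie 129 and 112 bp upstream of the start. In the RefSeq promoters of GRCh38.p14, CISH had 4 such elements in the 250 bases before its start, whereas 2306 of 35116 promoters (6.57%) had 1 or more and 5 (0.0142%) had 4 or more. A match of letters is a description and not a bound site.

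HA ChIP-seq answered whether the fusions reached the CISH sites. With ERBS gRNAs, HA signal at the 3 ERBSs was 7.88 to 36.0 times that of the control with dCas9-p300(core), and with dCas9-VP16(10x) it was 6.02 to 11.1 times in the column from which duplicate reads were removed, as in the control. With Adjacent gRNAs it was 11.7 times the control at CISH-A and 10.9 times at CISH-B. The signal is a read count that the authors scaled by depth and by promoters at background level, and ratios are those of means.

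At CISH-1, the 2 columns for dCas9-VP16(10x) with ERBS gRNAs had signals of 12.9 with duplicates removed and 43.1 with them kept, the dCas9-p300(core) libraries 14.2 and 19.5, the Adjacent libraries 1.04 and 0.869 and the IL1RN library 1.52. CISH-2 had 14.2 and 77.1, then 16.3 and 20.9, against 3.01 and 2.85 with Adjacent and 2.36 with IL1RN gRNAs. CISH-3 had 3.11 and 4.20, then 10.3 and 9.82, against 0.284 and 0.275 with Adjacent and 0.279 with IL1RN gRNAs. At all 3 ERBSs, every targeted value was above every other value. The column without duplicates kept 15.6% of the reads at CISH-2, 25.4% at CISH-1 and 62.6% at CISH-3, but 89.5 to 95.5% at the CISH promoter, CISH-A and CISH-B.

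At CISH-A, the Adjacent libraries had 7.13 and 4.16, the dCas9-VP16(10x) ERBS columns 0.487 and 0.431, the dCas9-p300(core) libraries 1.05 and 1.25 and the IL1RN library 0.482. CISH-B had 8.98 and 2.60 with Adjacent gRNAs, 0.209 and 0.186, then 1.32 and 1.07 with ERBS gRNAs and 0.533 with IL1RN gRNAs. Here too the targeted libraries stood above all others, with replicates of CISH-B further apart than those of CISH-A. The CISH promoter, the region next to the targeted sites that no gRNA addressed, had 3.27 and 3.09, then 0.526 and 2.86 with ERBS, 2.73 and 3.78 with Adjacent and 2.82 with IL1RN gRNAs, and its groups overlapped.

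**Figure D1:**
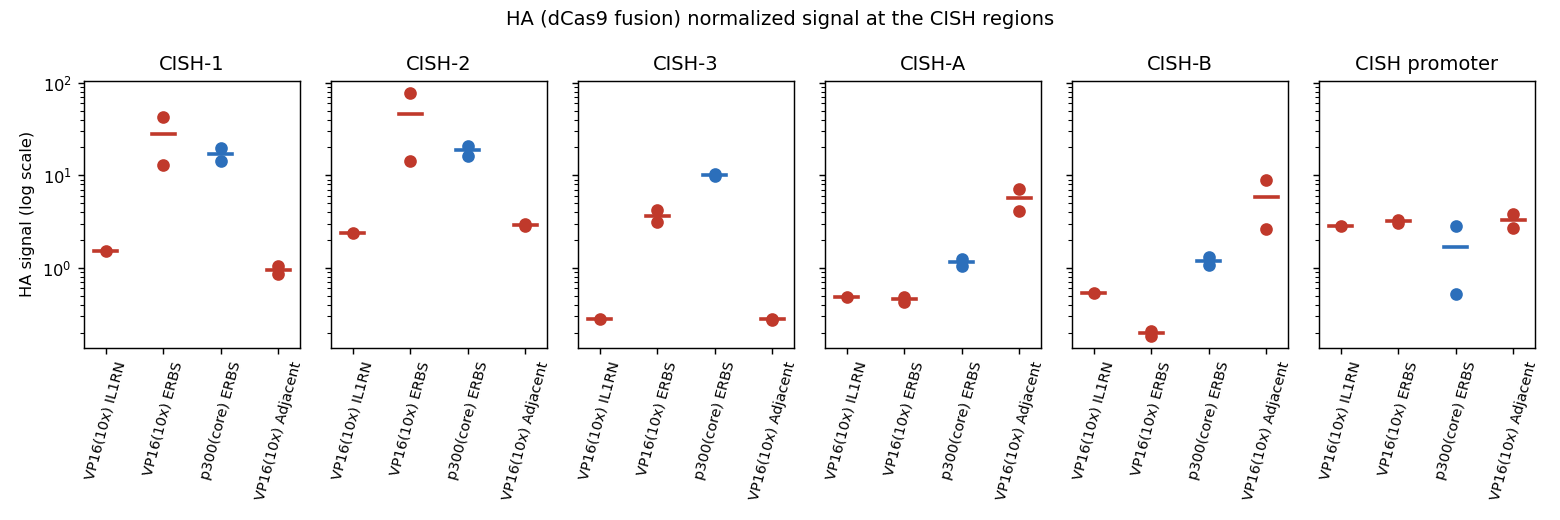
HA normalized signal (log axis) at the 6 CISH regions by fusion and gRNA pool, with 1 point per column, a line at each group mean, dCas9-VP16(10x) in red and dCas9-p300(core) in blue. The 2 points of VP16(10x) ERBS were counted as 1 sample. ERBS groups are high at CISH-1, CISH-2 and CISH-3, the Adjacent group is high at CISH-A and CISH-B, and the CISH promoter shows neither.

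limma was fitted to log2 signal over all 23 regions with p-values adjusted over every region and pool. With dCas9-VP16(10x) and ERBS gRNAs, 1 sample (the mean of the 2 columns) was set against 1 control, and the spread came from the Adjacent and dCas9-p300(core) pairs alone, so that both lone samples are assumed to vary like those. The log2 difference from the control was 4.14 at CISH-1 (SE 0.60, adjusted p = 0.0104), 4.23 at CISH-2 (SE 0.57, adjusted p = 0.0104) and 3.40 at CISH-3 (SE 0.55, adjusted p = 0.0131). With the column without duplicates alone these differences were 3.03, 2.55 and 3.17 (limma adjusted p = 0.0214, 0.0320 and 0.0199). For dCas9-p300(core) it was 3.39 at CISH-1 (SE 0.52, adjusted p = 0.0114), 2.93 at CISH-2 (SE 0.50, adjusted p = 0.0147) and 4.84 at CISH-3 (SE 0.47, adjusted p = 0.0104). The difference was 3.31 at CISH-A (SE 0.57, adjusted p = 0.0147), whereas 3.02 at CISH-B missed the threshold (SE 0.86, adjusted p = 0.0526). Thus 7 of 8 targeted tests passed, against 33.3% of all tests over the 23 regions, many of which were of other targeted sites. Of 10 tests of CISH regions outside the pool, limma called 0, with 0 at an unadjusted p under 0.05. All of these contrasts share the 1 IL1RN library. Leaving out either Adjacent library lowered the number of targeted calls. Over the fits that left out 1 library, the log2 difference was 2.93 to 3.70 at CISH-A and 2.14 to 3.90 at CISH-B. Without dCas9-p300(core) ERBS replicate 2, the log2 difference at the CISH promoter was -2.27 with that fusion. That value rested on replicate 1 alone, with a signal of 0.526 where 1 read gave 0.263, against the control of the other fusion. With the identifier as a block 3 targeted tests passed, against 13.0% of all tests. After each library was divided by its median over the 23 regions, 12 of which are ERBSs, 1 targeted test passed (CISH-3 with dCas9-p300(core), log2 difference 2.89) and 4 others passed as lower.

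HA peaks were called per library, with 6184 and 30740 in all for the 2 dCas9-VP16(10x) ERBS libraries. HA peaks overlapped CISH-1 in 4 of 4 targeted libraries and 2 of 3 others, CISH-2 in 3 of 4 and 3 of 3, and CISH-3 in 4 of 4 and 0 of 3. CISH-A and CISH-B each had a peak in 2 of 2 targeted libraries and 0 of 5 others. Over the 23 regions, 50.3% of pairs of a region and a library had an HA peak. Peaks at CISH-1 and CISH-2 were therefore not limited to libraries that targeted them, and the IL1RN library had fold enrichments of 10.4 and 10.0 there. The Adjacent libraries, which held no ERBS gRNAs, had 11.9 and 39.3 at CISH-2, and Adjacent replicate 2 had 19.4 at CISH-1. In the targeted libraries, the fold enrichments of peaks were 10.6 to 142 at CISH-1, 32.2 to 105 at CISH-2, 14.3 to 64.6 at CISH-3, 28.2 and 45.9 at CISH-A and 70.5 and 36.9 at CISH-B. Pooled over fusions, the fold enrichments of targeted and other libraries thus overlapped at CISH-1 and CISH-2. All other libraries were of dCas9-VP16(10x). Within that fusion the targeted libraries had 98.6 and 142 at CISH-1 and 71.2 and 105 at CISH-2, above all others. The overlap came from dCas9-p300(core) libraries, with 10.6 at CISH-1 and 32.2 at CISH-2, and that fusion had no non-targeted HA library. Summits of the targeted libraries lay a median of 78 bp from the center of the gRNAs at CISH-1 (71 to 82 bp), 16 bp at CISH-2 (2 to 26 bp) and 43.5 bp at CISH-3 (35 to 77 bp). Those of the non-targeted libraries with a peak lay 49 and 90 bp from it at CISH-1 and 13, 19 and 47 bp at CISH-2. Closeness to the gRNAs therefore did not set targeted libraries apart at CISH-1 and CISH-2. At CISH-A and CISH-B, whose gRNAs are spread further, the medians were 252.5 and 177.5 bp.

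H3K27ac ChIP-seq answered whether acetylation followed the gRNAs. The mean signal at a targeted ERBS was 3.75 to 27.9 times that of the IL1RN control with dCas9-VP16(10x) and 4.62 to 10.5 times with dCas9-p300(core), and it was 8.18 and 2.97 times the control at CISH-B. At CISH-A it was 4.18 times the control with dCas9-VP16(10x) and 0.581 times with dCas9-p300(core). The latter was 2.31 times against the 1 control that shared the identifier of its libraries. Tested against all libraries of other pools by exact permutation, the pool effect passed at CISH-1, CISH-2, CISH-3 and CISH-B and not at CISH-A, whereas limma against the IL1RN libraries alone called none. The values below are reads that the authors normalized for depth and for read depth in shared peaks, given as replicate 1 and replicate 2.

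CISH-1 with dCas9-VP16(10x) had signals of 0.570 and 2.88 under Pool 1, 0.00628 and 0.156 under IL1RN, 0.152 and 0.187 under Pool 2, 0.0399 and 0.156 under Pool 3 and 0.339 and 0.0930 under Adjacent gRNAs. With dCas9-p300(core) it had 1.09 and 4.89 under Pool 1, 0.0485 and 0.522 under IL1RN, 0.180 and 0.507 under Pool 2, 0.262 and 0.504 under Pool 3 and 0.0799 and 0.0813 under Adjacent gRNAs. Both Pool 1 libraries stood above the 8 others with each fusion, although replicates of a pool differed several fold. The ratio to the control of the same set was 90.8 with dCas9-VP16(10x) among libraries with the identifier, where the control had 1 read (95% counting interval 16.0 to 3613), and 18.5 among libraries without one. With dCas9-p300(core) these ratios were 22.4 and 9.37. Without dCas9-VP16(10x) Pool 1 replicate 2, whose names disagree on the fusion, the log2 difference with that fusion was 3.81 in place of 4.98.

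In the IL1RN libraries, CISH-2 had the highest mean of the 5 targeted regions with each fusion. With dCas9-VP16(10x) it had 3.06 and 4.86 under Pool 2, 0.383 and 1.73 under IL1RN, 0.702 and 2.47 under Pool 1, 0.959 and 1.46 under Pool 3 and 3.15 and 2.06 under Adjacent gRNAs. Its values with dCas9-p300(core) were 2.44 and 5.68 under Pool 2, 0.277 and 1.48 under IL1RN, 0.604 and 1.48 under Pool 1, 0.487 and 1.1 under Pool 3 and 0.261 and 0.343 under Adjacent gRNAs. The Pool 2 libraries were the highest with dCas9-p300(core), but with dCas9-VP16(10x) Adjacent replicate 1 lay between them. The ratios within these sets were 7.99 and 2.81 with dCas9-VP16(10x) and 8.81 and 3.83 with dCas9-p300(core), with the identifier first.

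CISH-3 is the site furthest from the gene, and its control signals were near 0 with dCas9-VP16(10x). With dCas9-VP16(10x) it had 0.280 and 0.521 under Pool 3, 0 and 0.0287 under IL1RN, 0.0177 and 0.0431 under Pool 1, 0.0397 and 0.0290 under Pool 2 and 0.0449 and 0.0109 under Adjacent gRNAs. With dCas9-p300(core) it had 0.618 and 2.61 under Pool 3, 0.0624 and 0.371 under IL1RN, 0.0589 and 0.375 under Pool 1, 0.0967 and 0.296 under Pool 2 and 0.0266 and 0.0181 under Adjacent gRNAs. The targeted libraries were above all 8 others with each fusion. Among libraries with the identifier, the control of dCas9-VP16(10x) had 0 reads and the targeted library 7. The latter was at least 14.8-fold higher when 3 reads in that control (a signal of 0.0188) were taken as the floor and its own 7 reads as exact, and with the error of both counts the lower 95% limit of the ratio was 9.17. The other ratios within the sets were 18.2 with dCas9-VP16(10x) and 9.91 and 7.04 with dCas9-p300(core).

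Where targeted, the adjacent regions had lower levels than CISH-1 and CISH-2 under their own pools. With dCas9-VP16(10x) both overlapped the values of CISH-3 under Pool 3. CISH-A with dCas9-VP16(10x) had 0.324 and 0.156 under Adjacent gRNAs, 0.0126 and 0.102 under IL1RN and 0.0399 to 0.108 under Pools 1 to 3. Its values with dCas9-p300(core) were 0.106 and 0.117 under Adjacent gRNAs, 0.0485 and 0.337 under IL1RN and 0.0276 to 0.486 under Pools 1 to 3. The targeted libraries of CISH-A were thus above the rest with dCas9-VP16(10x) and in the midst of them with dCas9-p300(core). CISH-B had 0.559 and 0.216 with dCas9-VP16(10x) under Adjacent gRNAs, against 0.0251 and 0.0697 under IL1RN and 0.0265 to 0.0861 under Pools 1 to 3. With dCas9-p300(core) it had 0.234 and 0.406, against 0.0139 and 0.202 under IL1RN and 0.0884 to 0.353 under Pools 1 to 3, so that the targeted libraries lay above both controls but overlapped the other pools. The Adjacent libraries of dCas9-p300(core) both carried the identifier, and against the 1 control that carried it the ratio was 2.31 at CISH-A and 23.1 at CISH-B, where the control had 2 reads (95% counting interval 6.21 to 194). With dCas9-VP16(10x) the ratios within the sets were 12.4 (interval 3.28 to 105, control of 2 reads) and 3.17 at CISH-A, and 8.61 and 8.02 at CISH-B. Without Adjacent replicate 1, which also carried IL1RN gRNAs, the log2 differences with dCas9-VP16(10x) were 1.92 at CISH-A and 2.24 at CISH-B, in place of 2.44 and 2.92.

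**Figure D2:**
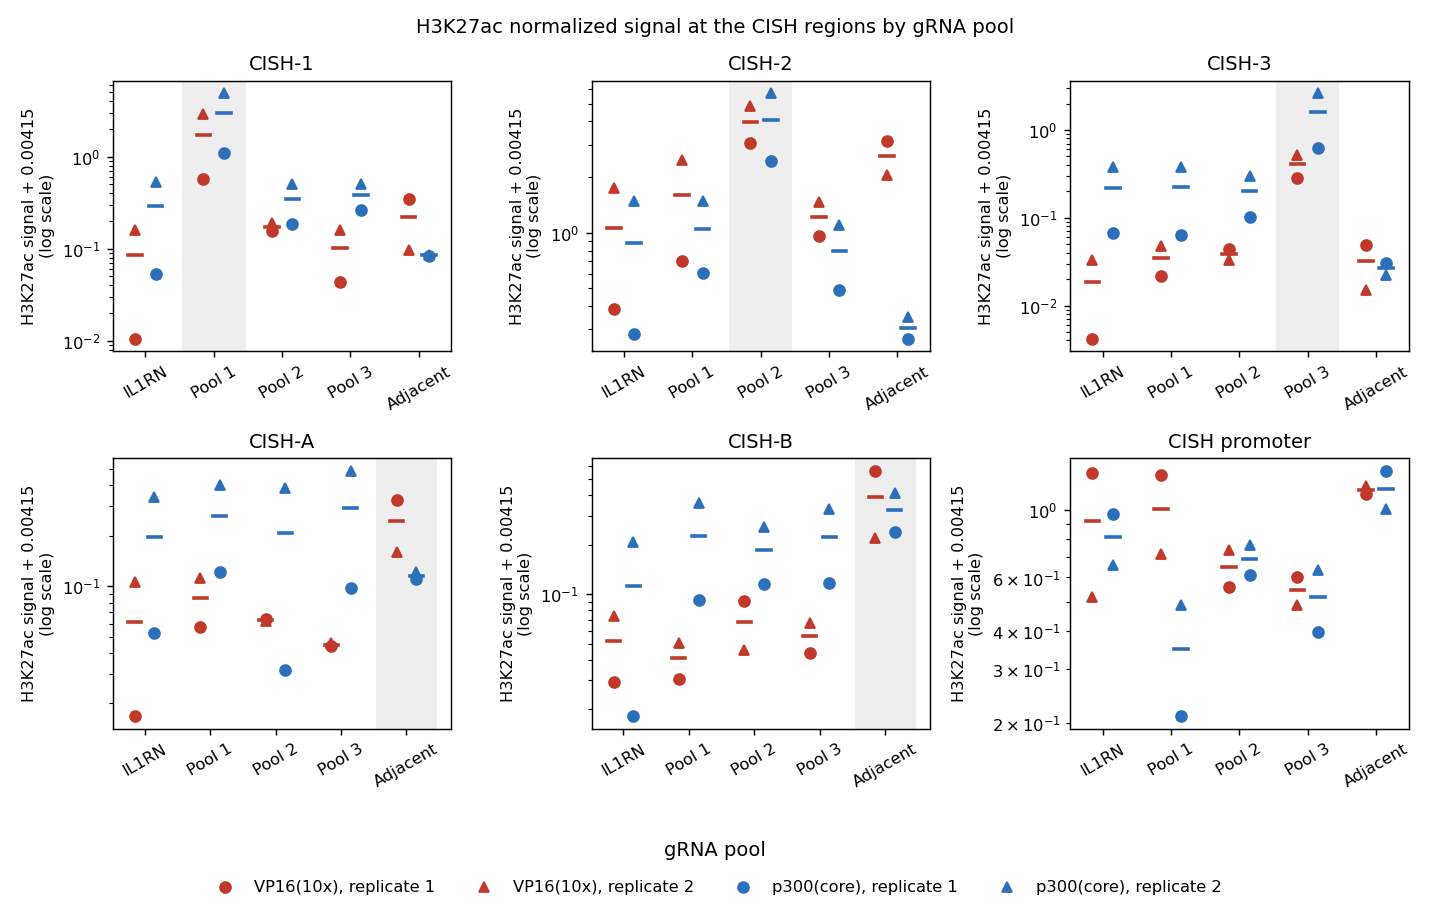
H3K27ac normalized signal plus the pseudocount of 0.00415 (log axis) at the 6 CISH regions by gRNA pool, with circles for replicate 1, triangles for replicate 2, a line at each group mean, dCas9-VP16(10x) in red, dCas9-p300(core) in blue and a gray band over the pool that targets the region. Under the band, both libraries stand above the 8 others of their fusion in 7 of 10 cases, and the exceptions are CISH-2 with dCas9-VP16(10x) and CISH-A and CISH-B with dCas9-p300(core).

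Averaged over fusions against the libraries of all other pools, the log2 pool effect was 3.60 at CISH-1 under Pool 1 (exact permutation p = 4.94e-04, adjusted 0.00909), 3.79 at CISH-3 under Pool 3 (exact permutation p = 4.94e-04, adjusted 0.00909) and 2.07 at CISH-2 under Pool 2 (exact permutation p = 0.00148, adjusted 0.0151). It was 1.99 at CISH-B (exact permutation p = 0.00296, adjusted 0.0273) and 0.77 at CISH-A (exact permutation p = 0.287, adjusted 0.738) under Adjacent gRNAs. The p of 4.94e-04 is the smallest that the 2025 two-sided reassignments can give. Reassignment did not account for the identifier, which both dCas9-p300(core) Adjacent libraries carried, whereas its other pools each held 1 library with and 1 without it. Median H3K27ac signals with and without it were 0.0596 and 0.324 at CISH-A and 0.0884 and 0.202 at CISH-B. The results at CISH-A and CISH-B carry this imbalance. By this rule 4 of 5 targeted tests rose and 0 of 19 tests of CISH regions outside the pool did, with 1 of the latter higher at an unadjusted p under 0.05, against 10.9% of all tests over the 23 regions. Both libraries of a pool were above the 8 others of the fusion in 7 of 10 targeted cases and in 1 of 38 others, the CISH promoter under Adjacent gRNAs with dCas9-p300(core), against 13.6% over all regions.

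With limma against the 2 IL1RN libraries of the fusion, the log2 difference with dCas9-VP16(10x) was 4.98 at CISH-1 (SE 1.36, adjusted p = 0.102), 2.24 at CISH-2 (SE 0.99, adjusted p = 0.294) and 5.05 at CISH-3 (SE 1.20, adjusted p = 0.0648). Under dCas9-p300(core), the values were 3.80 at CISH-1 (SE 1.36, adjusted p = 0.207), 2.53 at CISH-2 (SE 0.99, adjusted p = 0.219) and 3.01 at CISH-3 (SE 1.20, adjusted p = 0.228). CISH-B had 2.92 and 2.36 (SE 1.09 each, adjusted p = 0.219 and 0.318) and CISH-A 2.44 and -0.21 (SE 1.25 each, adjusted p = 0.409 and 0.957), with dCas9-VP16(10x) first. limma therefore called 0 of 10 targeted tests, with 8 of 10 at an unadjusted p under 0.05, and 0 of 38 other tests, with 1 lower at an unadjusted p under 0.05 (CISH-3 under Adjacent gRNAs with dCas9-p300(core), -2.59). The same rule called 0% of the 184 tests over all regions, and 12.5% of them were higher at an unadjusted p under 0.05. The 4 contrasts of a fusion share its IL1RN libraries, and leaving out 1 of the pair moved the values at the ERBSs most. With dCas9-VP16(10x), the log2 difference was 3.01 at CISH-1, 1.15 at CISH-2 and 3.56 at CISH-3 without IL1RN replicate 1, and 6.95, 3.32 and 6.54 without IL1RN replicate 2, when CISH-1 and CISH-3 passed (limma adjusted p = 0.0267 each). With dCas9-p300(core), the values were 2.14, 1.33 and 1.77 without IL1RN replicate 1 and 5.46, 3.73 and 4.26 without IL1RN replicate 2, and none passed. CISH-B with dCas9-p300(core) ranged likewise from 0.60 to 4.12.

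The identifier as a block changed the calls. With it, limma called 9 of 10 targeted tests, all but CISH-A with dCas9-p300(core), where the log2 difference turned from -0.21 to 0.63 (adjusted p = 0.633). The background rose to 15.8% of all tests. Adjusted p was 3.76e-05 and 7.47e-04 at CISH-1, 0.00878 and 0.00377 at CISH-2, 3.76e-05 and 0.00306 at CISH-3, and 0.00622 and 0.00636 at CISH-B by limma, with dCas9-VP16(10x) first, and 0.0218 at CISH-A with dCas9-VP16(10x). CISH-1 was then also called in 2 dCas9-VP16(10x) pools that did not target it, with log2 differences of 2.08 under Pool 2 (SE 0.71, adjusted p = 0.0380) and 2.16 under Adjacent gRNAs (SE 0.71, adjusted p = 0.0308). The IL1RN library with the identifier had 1 read at CISH-1 (a signal of 0.00628), and the one without had 0.156. With the identifier, both pools stood many fold above that 1 read. Without it, Pool 2 was close to the control, and the Adjacent library had 0.339. The neighbor of CISH-1, CISH-2, is in Pool 2, and whether it had a part in these values was not tested.

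H3K27ac peaks overlapped CISH-1 in 4 of 4 targeted libraries and 0 of 16 others, with fold enrichments of 11.5 and 20.4 with dCas9-VP16(10x) and 11.6 and 13.6 with dCas9-p300(core). CISH-2 had a peak in 4 of 4 targeted libraries (24.9, 42.2, 12.4 and 10.8) and in 6 of 16 others, among them the dCas9-VP16(10x) Adjacent libraries at 29.0 and 33.5. CISH-3 had a peak in 2 of 4 targeted libraries (13.1 and 13.5) and 0 of 16 others, CISH-B in 2 of 4 (13.3 and 6.96) and 0 of 16, and CISH-A in 0 of 4 and 0 of 16. The background was 28.5% of pairs of a region and a library. CISH-1 was the targeted region at which peaks in all targeted libraries stood against none elsewhere. In the targeted libraries, the summits lay further from the gRNAs than those of HA, a median of 257 bp at CISH-1, 289.5 bp at CISH-2, 205.5 bp at CISH-3 and 270.5 bp at CISH-B. At CISH-2, the summits of the other libraries with a peak lay 191 to 560 bp away.

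RNAPII ChIP-seq answered whether polymerase was found at the targeted sites. CISH-1 under Pool 1 had 3.91 times the control signal for dCas9-VP16(10x) and 3.97 times for dCas9-p300(core), and both passed the limma test, although near its threshold. The ratios at the other targeted regions were 0.774 to 2.75, and none of them passed.

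At CISH-1, the dCas9-VP16(10x) libraries had signals of 0.771 and 0.778 under Pool 1, 0.211 and 0.186 under IL1RN, 0.366 and 0.463 under Pool 2, 0.218 and 0.271 under Pool 3 and 0.221 and 0.250 under Adjacent gRNAs. The dCas9-p300(core) libraries had 0.438 and 0.420 under Pool 1, 0.129 and 0.0868 under IL1RN, 0.218 and 0.128 under Pool 2, 0.137 and 0.0683 under Pool 3 and 0.0730 and 0.0596 under Adjacent gRNAs. Pool 1 was above all 8 others with each fusion, and the spread between its replicates was small. With dCas9-VP16(10x), Pool 2, which targets the neighboring CISH-2, held the next highest pair (log2 difference 1.04, limma adjusted p = 0.886). The ratio among libraries that share an identifier was 3.89 with dCas9-VP16(10x), for Pool 1 replicate 1 alone, and 3.97 with dCas9-p300(core).

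CISH-2 had 0.794 and 1.00 under Pool 2 with dCas9-VP16(10x), against 0.720 and 0.621 under IL1RN, 0.884 and 1.05 under Pool 1, 0.551 and 0.549 under Pool 3 and 0.781 and 0.766 under Adjacent gRNAs. Its values with dCas9-p300(core) were 0.892 and 0.428 under Pool 2, against 0.388 and 0.288 under IL1RN, 0.742 and 0.338 under Pool 1, 0.331 and 0.287 under Pool 3 and 0.195 and 0.381 under Adjacent gRNAs. The pools that target CISH-1 and CISH-2 overlapped at CISH-2. CISH-3 had RNAPII signals of 0.0123 to 0.146 in all 20 libraries, with 0.0919 and 0.0568 under Pool 3 against 0.0637 and 0.0690 under IL1RN with dCas9-VP16(10x), and 0.0893 and 0.0273 against 0.0485 and 0.0276 with dCas9-p300(core). Its lowest and its highest value were both the lowest of the 6 regions, and its groups overlapped.

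CISH-A with dCas9-VP16(10x) had 0.406 and 0.479 under Adjacent gRNAs, 0.127 and 0.194 under IL1RN and 0.120 to 0.282 under Pools 1 to 3, and its targeted libraries were the highest of that fusion. With dCas9-p300(core) it had 0.0932 and 0.0629 under Adjacent gRNAs against 0.154 and 0.0395 under IL1RN. CISH-B had 0.315 and 0.381 under Adjacent gRNAs against 0.203 and 0.259 under IL1RN with dCas9-VP16(10x), where Pool 3 replicate 1 reached 0.324. Its values with dCas9-p300(core) were 0.126 and 0.129 against 0.242 and 0.0868. Apart from CISH-A with dCas9-VP16(10x), the targeted libraries of the adjacent regions overlapped the others.

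**Figure D3:**
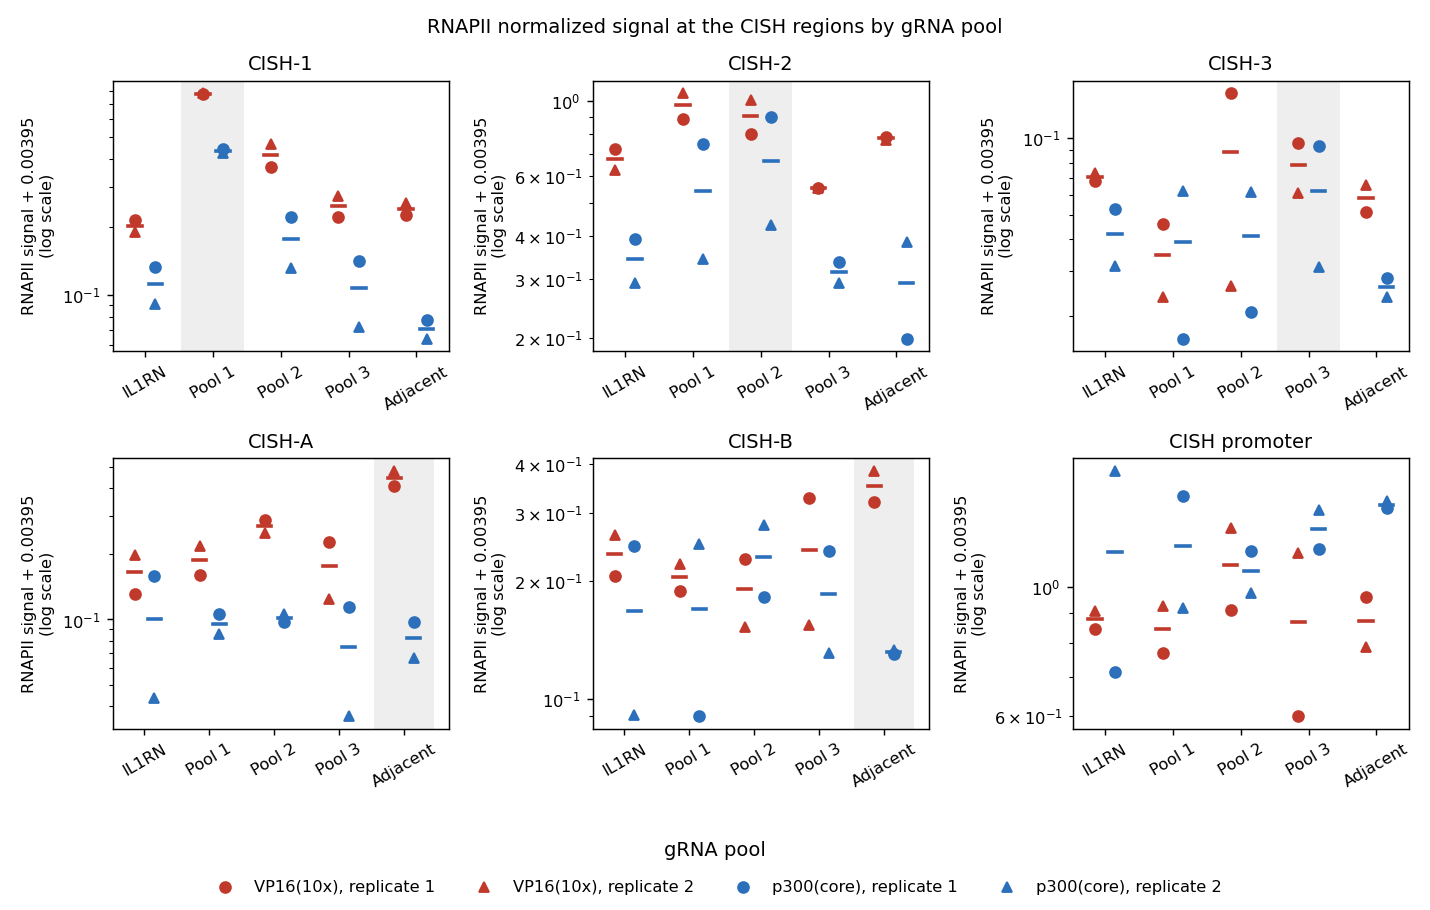
RNAPII normalized signal plus the pseudocount of 0.00395 (log axis, scaled per region) at the 6 CISH regions by gRNA pool, with circles for replicate 1, triangles for replicate 2, a line at each group mean, dCas9-VP16(10x) in red, dCas9-p300(core) in blue and a gray band over the pool that targets the region. CISH-1 under Pool 1 stands above the 8 others with both fusions and CISH-A under Adjacent gRNAs with dCas9-VP16(10x), while the other banded groups overlap the rest.

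In limma, the log2 differences at CISH-1 were 1.95 (dCas9-VP16(10x)) and 1.98 (dCas9-p300(core)), with an SE of 0.42 and an adjusted p of 0.0283 for each. They were 0.41 and 0.88 at CISH-2 (SE 0.48), 0.12 and 0.41 at CISH-3 (SE 0.81) and 0.59 and -0.19 at CISH-B (SE 0.58), with dCas9-VP16(10x) first and limma adjusted p of 0.999 throughout. CISH-A had 1.46 with dCas9-VP16(10x) (SE 0.61, limma adjusted p = 0.886) and -0.04 with dCas9-p300(core). Thus 2 of 10 targeted tests rose and 0 of 38 others, with 1 of the latter higher at an unadjusted p under 0.05, against 1.09% of all tests over the 23 regions. That share consists of the same 2 calls at CISH-1, so it is no separate background. In the permutation test over both fusions, the log2 pool effect was 1.78 at CISH-1 (exact permutation p = 4.94e-04, adjusted 0.0454), 0.57 at CISH-2 (exact permutation p = 0.0346, adjusted 0.454) and 0.57 at CISH-A (exact permutation p = 0.117, adjusted 0.596). That test called 1 of 5 targeted tests and 0 of 19 others, with 0 of the latter at an unadjusted p under 0.05, against 2.17% of all. Both libraries of a pool were above the 8 others in 3 of 10 targeted cases and 0 of 38 others, against 7.07% over all regions.

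The limma calls at CISH-1 were near the threshold. Both were lost without either dCas9-VP16(10x) library of IL1RN, Pool 1 or Adjacent gRNAs and without either dCas9-p300(core) Pool 1 library, and 1 was lost without dCas9-p300(core) IL1RN replicate 2, with adjusted p of 0.0166 to 0.419 with dCas9-VP16(10x) and 0.0166 to 0.20 with dCas9-p300(core) over the 20 limma fits that each left out 1 library. The log2 differences in these fits were 1.86 to 2.04 and 1.70 to 2.25. With the identifier as a block 0 of 10 targeted tests passed, against 0% of all tests, at adjusted p of 0.10 and 0.0601 by limma. After each library was divided by its median over the 23 regions, CISH-1 had log2 differences of 1.72 and 0.88, and 0 targeted tests passed by limma. The calls at CISH-1 were also lost when the dCas9-VP16(10x) IL1RN pair was counted as 1 sample.

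RNAPII peaks overlapped CISH-1 in 4 of 4 targeted libraries and 0 of 16 others, with fold enrichments of 23 and 19 with dCas9-VP16(10x) and 14.2 and 11.9 with dCas9-p300(core). CISH-2 had an RNAPII peak in 3 of 4 targeted libraries and 9 of 16 others, CISH-3 in 0 of 4 and 0 of 16, CISH-A in 2 of 4 (4.80 and 5.19) and 0 of 16, and CISH-B in 2 of 4 (7.43 and 7.57) and 1 of 16. The background was 38.3% of pairs of a region and a library. The targeted libraries with a peak at CISH-A and CISH-B were those of dCas9-VP16(10x). RNAPII summits at CISH-1 lay a median of 109 bp from the center of the gRNAs (91 to 169 bp), between the medians of HA and of H3K27ac.

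**Figure D4:**
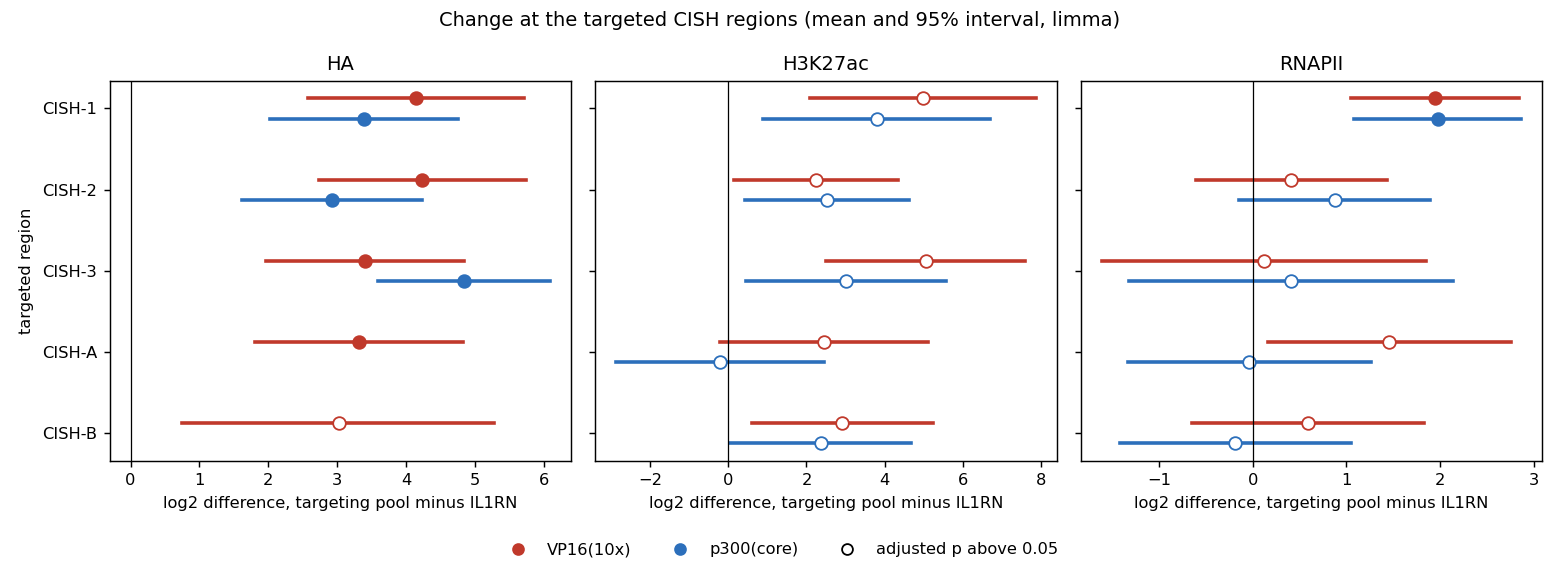
The limma log2 difference between the targeting pool and IL1RN libraries at the 5 targeted CISH regions for HA, H3K27ac and RNAPII, with 95% intervals, dCas9-VP16(10x) in red and dCas9-p300(core) in blue, filled where the adjusted p was at most 0.05. HA is filled at all regions except CISH-B (3.02), RNAPII is filled at CISH-1 only (1.95 and 1.98), and no H3K27ac value is filled.

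The fusions were compared through the difference of their log2 changes, dCas9-VP16(10x) minus dCas9-p300(core). For H3K27ac, this difference was 1.18 at CISH-1 (95% interval -2.91 to 5.27), -0.29 at CISH-2 (-3.26 to 2.68), 2.03 at CISH-3 (-1.57 to 5.64), 2.65 at CISH-A (-1.11 to 6.41) and 0.56 at CISH-B (-2.70 to 3.83), with a limma adjusted p of 0.987 each. For RNAPII it was -0.03 at CISH-1 (-1.29 to 1.24), -0.47 at CISH-2 (-1.90 to 0.97), -0.29 at CISH-3 (-2.74 to 2.16), 1.50 at CISH-A (-0.33 to 3.33) and 0.78 at CISH-B (-0.97 to 2.53), with a limma adjusted p of 0.999 each. limma called 0 of 24 tests of CISH regions for either antibody, with 1 and 0 at an unadjusted p under 0.05, against 0% of tests over all regions for each. The intervals span several fold in both directions for H3K27ac, so a difference between fusions was not detectable with these replicates. At CISH-1, where RNAPII passed with both fusions, the interval runs from -1.29 to 1.24 on the log2 scale, which does not show that the fusions act alike.

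The CISH promoter, which no pool targeted, was measured in the same libraries. Its RNAPII signal ranged from 0.595 to 1.58 over 20 libraries with a median of 0.965, and its H3K27ac signal from 0.206 to 1.34 with a median of 0.684. With dCas9-VP16(10x) it had RNAPII signals of 0.844 and 0.906 under IL1RN, 0.766 and 0.922 under Pool 1, 0.909 and 1.26 under Pool 2, 0.595 and 1.14 under Pool 3 and 0.958 and 0.784 under Adjacent gRNAs. With dCas9-p300(core) it had 0.711 and 1.58 under IL1RN, 1.43 and 0.915 under Pool 1, 1.15 and 0.971 under Pool 2, 1.16 and 1.35 under Pool 3 and 1.36 and 1.40 under Adjacent gRNAs. Both Pool 2 libraries of dCas9-VP16(10x) lay above both controls, whereas the other pools overlapped the controls of their fusion. The log2 differences in RNAPII from the IL1RN libraries were -0.08 to 0.38 (SE 0.46, limma adjusted p = 0.999 throughout), and the widest reach of their 95% intervals was -1.05 and 1.35.

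H3K27ac at the CISH promoter was 1.32 and 0.512 under IL1RN with dCas9-VP16(10x), 1.30 and 0.710 under Pool 1, 0.556 and 0.734 under Pool 2, 0.599 and 0.484 under Pool 3 and 1.12 and 1.19 under Adjacent gRNAs. Its H3K27ac values with dCas9-p300(core) were 0.964 and 0.657 under IL1RN, 0.206 and 0.485 under Pool 1, 0.608 and 0.760 under Pool 2, 0.394 and 0.630 under Pool 3 and 1.34 and 1.00 under Adjacent gRNAs. The Adjacent libraries were the highest pair with dCas9-p300(core), and with dCas9-VP16(10x) both lay below the highest library of IL1RN and of Pool 1. Both libraries of Pool 1 and of Pool 3 with dCas9-p300(core) lay below both controls. The log2 differences in H3K27ac from the IL1RN libraries were -1.32 to 0.54 (SE 0.72). The lowest was that of Pool 1 with dCas9-p300(core) (limma adjusted p = 0.479), and none passed. The log2 pool effect of Adjacent gRNAs over both fusions was 0.88 (exact permutation p = 0.0173, adjusted 0.122). CISH-A shares 63 bp with this region, and the pair of Adjacent libraries of dCas9-p300(core) shared the identifier, so the part of either in this value was not tested.

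Over the 20 libraries, the regions whose log2 H3K27ac signal was most like that of the CISH promoter were HES2-3 (Pearson r = 0.83), the FHL2 promoter (0.80) and the HES2 promoter (0.70), and for RNAPII the FHL2 promoter (0.77), the MMP17 promoter (0.71) and HES2-3 (0.55). For HA over 6 samples they were the MMP17 promoter (0.86), the FHL2 promoter (0.85) and the IL1RN promoter (0.59). With the other 5 CISH regions, the H3K27ac signal of the CISH promoter had an r of -0.52 to -0.00, its RNAPII signal one of -0.83 to -0.36 and its HA signal one of -0.55 to 0.17. Sites of other loci reached similar values, such as MMP17-2 with -0.48 for H3K27ac and -0.71 for RNAPII. Negative values were thus not particular to the CISH regions. These values describe libraries that share depth and normalization, and none of the regions most like the promoter was one of the CISH regions.

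Across the window of 120000 bp, the peaks shared by at least 10 of 20 libraries were found at promoters and at CISH-2. RNAPII peaks were found at the start of HEMK1 in 20 of 20 libraries, at the CISH promoter in 19 of 20, near another start of MAPKAPK3 (median summit 5533 bp from the CISH start) in 18 of 20, at CISH-2 in 12 of 20 and at C3orf18 in 10 of 20. H3K27ac peaks were found near the other MAPKAPK3 start in 13 of 20 libraries, at the start of HEMK1 in 12, and at the CISH promoter and CISH-2 in 10 each. The counts and median fold enrichments at CISH-2 include the libraries that targeted it. Its H3K27ac peak was found in 4 of 4 targeted libraries and 6 of 16 others, and its RNAPII peak in 3 of 4 and 9 of 16. The median fold enrichment of H3K27ac was 22.3 near the other MAPKAPK3 start, 17.6 at the CISH promoter, 17.0 at CISH-2 and 12.7 at HEMK1. For RNAPII it was 12.9 at the CISH promoter, 12.2 near the other MAPKAPK3 start, 8.87 at HEMK1 and 7.35 at CISH-2. HA peaks were found in 5 of 7 libraries both at HEMK1 and at the CISH promoter, namely all those of dCas9-VP16(10x), with the IL1RN control among them. The dCas9-p300(core) HA libraries had no peak at either and only 154 and 141 peaks in all. Of the H3K27ac libraries, dCas9-p300(core) IL1RN replicate 2 and replicate 1 of Pool 3 with each fusion had no peak in the window, and H3K27ac libraries had 1805 to 32052 peaks in all, so that the absence of a peak in a library is no measure of the region.

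**Figure D5:**
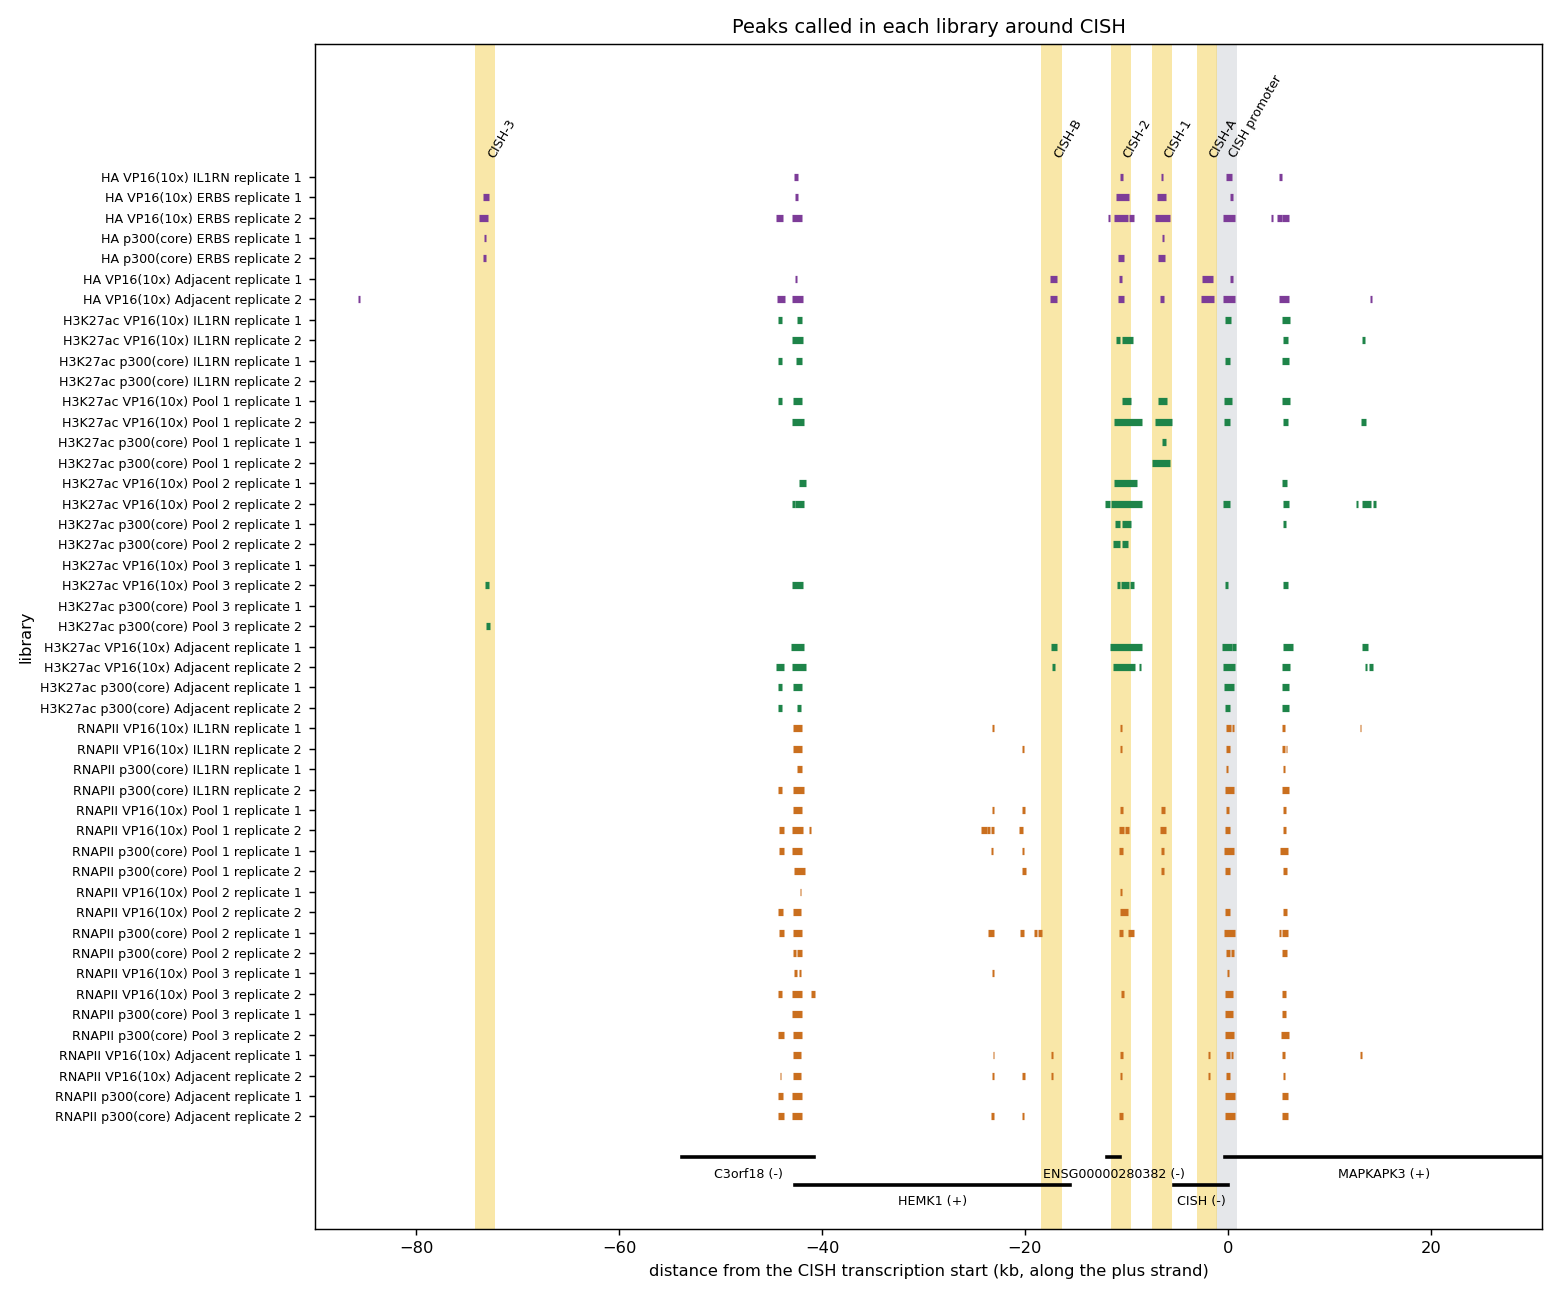
Peaks called in each of 47 libraries around CISH by distance from its start (kb along the plus strand), with HA in purple, H3K27ac in green, RNAPII in orange, the 5 targeted regions as yellow bands, the CISH promoter region as a gray band and genes as black lines with their strand. Green and orange marks fill the CISH-1 band in the 4 Pool 1 libraries of each antibody and in no other, while marks at the promoters of CISH, MAPKAPK3 and HEMK1 recur across pools.

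The genes of the SOCS family and of the pathway of CISH were counted by peaks within 1 kb of a transcript start. All 8 of 8 SOCS family genes had an H3K27ac peak in at least 10 of 20 libraries, against 45.9% of 20090 protein-coding genes, and all 8 had an RNAPII peak in at least 10, against 60.8%. CISH had the fewest of the family in both, 10 libraries with H3K27ac and 19 with RNAPII, while the highest for H3K27ac was SOCS5 with 15. The MAPKAPK3 start lies 254 bp from that of CISH, so the peaks counted for CISH cannot be assigned to either gene. Of 11 pathway genes, 6 had H3K27ac peaks in at least 10 libraries and 8 had RNAPII peaks. The kinase gene JAK2 had 16 and 20, STAT5B 11 and 16, and STAT5A 0 and 3. Among receptors that signal through JAK2, the prolactin receptor PRLR had 9 and 12, the growth hormone receptor GHR 6 and 8 and the erythropoietin receptor EPOR 4 and 13, whereas the interleukin-2 receptor chain IL2RB had 0 and 0. The partners of the SOCS box in the ubiquitin ligase had 20 and 20 (ELOB), 16 and 19 (ELOC), 16 and 20 (CUL5) and 14 and 20 (RNF7). Epithelial and endometrial markers had H3K27ac peaks in at least 10 libraries for 7 of 7 genes (EPCAM in 17 and ESR1, the estrogen receptor gene, in 20), and 4 of 4 leukocyte markers had none in any library.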

How the data were processed

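ChIP-seq of the HA tag, H3K27ac and RNAPII in Ishikawa cells was analysed from 1 table of 23 regions and 47 lists of peaks. The authors aligned reads to hg19 with Bowtie 1.1.2, removed duplicates with SAMtools and counted reads per region with bedtools. The deposited signal was normalized by the authors for total depth and then for read depth in overlapping peaks (H3K27ac and RNAPII) or for control promoters with background signal (HA). Peaks were called per library, with MACS2 2.1.0.20140616 among the tools per the labels, and were deposited with a score, a fold enrichment (ratio), the -log10 of the p-value, at least 10.0007 in any list, and the -log10 of the q-value. Depth was read from the steps of the signal, since every value was a whole multiple of its library's smallest step within 0.02 of it, and that multiple was used as the read count.

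Signals were put on a log2 scale after adding a pseudocount, the lowest nonzero signal of each antibody (HA 0.0742, H3K27ac 0.00415, RNAPII 0.00395), so that log2 differences understate changes of low values. limma 3.58.1 (R 4.3.3) was fitted per antibody to all 23 regions, and every combination of fusion and pool had its own mean. Pools were compared with the IL1RN libraries of the fusion, but in HA both fusions used the single IL1RN library of dCas9-VP16(10x). Benjamini-Hochberg adjustment ran over all regions and contrasts of an antibody, at a threshold of 0.05. The exact permutation test, two-sided, compared the libraries of a pool with the 8 others of each fusion over 2025 reassignments within fusions, adjusted over 92 tests. The fits were tested on simulated data with independent noise per library. Those data held no difference between identifiers, so they do not show how the fits behave under one. Positions and motifs were read from hg19 with GENCODE annotation, gRNAs from the list of the study's supplement and promoters from RefSeq. Python 3.11.15, pandas 2.3.3, NumPy 2.4.6, SciPy 1.17.1 and matplotlib 3.10.9 were used.

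The text names all 6 CISH regions, genes with a start in the window, merged peaks in at least 10 of 20 libraries (4 of 7 for HA), the 3 regions most like the CISH promoter by Pearson r, and the SOCS, pathway and marker genes. The members and lists were chosen with earlier results of these data known. The marker lists were of epithelium (7 of 7 with H3K27ac peaks in at least 10 libraries), leukocytes (0 of 4), endothelium (0 of 1 matched, CDH5) and stroma (0 of 3, of which COL1A1 had peaks in 9 libraries). Alternatives were another pseudocount, scaling by medians, a filter on regions under a mean of 10 reads, other controls, adjustment over targeted regions only, fits to 1 fusion, blocks by replicate number and by the identifier in peak names, leaving out each library, and stricter peaks. Some of them (each HA column of the ERBS pair alone, the identifier block for HA and for the difference between fusions, the median over non-targeted regions and the IL1RN pair of RNAPII as 1 sample) were chosen after seeing the data.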

Additional observations from a re-analysis of the deposited data

How the results depend on the processing

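Under the alternatives other than leaving out a library, 399 values kept their direction and their side of the threshold, 26 newly passed it, 20 no longer passed it and 26 turned sign. The values that turned sign were of tests that had not passed, mostly of the CISH promoter. The targeted HA calls numbered 7, and 1 after each library was divided by its median over the 23 regions and 3 with the identifier in peak names as a block, whereas the non-targeted calls went from 0 to 4, all lower, with the median. That division moved the median log2 difference of a contrast over the 23 regions by -2.61 to -1.54 in HA. In H3K27ac the shift was -2.04 to 0.09, and in RNAPII -1.08 to 0.21. The targeted H3K27ac calls went from 0 to 1 with the median over 23 regions and with the median over regions that no pool targets, 2 with adjustment over targeted regions only, 2 with all other pools as control, 5 with the replicate number as a block and 9 with the identifier as a block, which also gave 2 non-targeted calls. The targeted RNAPII calls went from 2 to 0 with either median, with the identifier as a block and with the dCas9-VP16(10x) IL1RN pair, whose reads differed by less than the sampling noise, as 1 sample, and to 1 with a fit to 1 fusion. HA peaks at non-targeted CISH regions went from 10 to 4 with an overlap of at least 500 bp, and RNAPII peaks from 29 to 9. RNAPII peaks at targeted regions went from 11 to 6 at a -log10 p of at least 20 and to 2 with the longer overlap. The cause of these changes was not tested.

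At the CISH promoter, division by the median over the 23 regions turned the HA differences with dCas9-VP16(10x) to -2.42 (ERBS) and -1.38 (Adjacent), those of H3K27ac with dCas9-VP16(10x) to -1.84 (Pool 1) and -0.93 (Adjacent), and that of RNAPII with dCas9-p300(core) under Pool 1 to -1.0. The identifier block turned HA under Adjacent to -0.05. The median over non-targeted regions gave H3K27ac differences of -0.07 and 0.15 with dCas9-VP16(10x) (Pools 1 and 3) and 0.30 and 0.21 with dCas9-p300(core) (Pools 2 and 3), and RNAPII differences of 0.03 and -0.03 with dCas9-VP16(10x) (Pools 1 and 2) and -0.02 and -0.24 with dCas9-p300(core) (Pools 1 and 3). All other pools as control gave 0.14 for H3K27ac under Pool 2 and -0.04 for RNAPII under Pool 1 with dCas9-p300(core). With dCas9-p300(core), H3K27ac at CISH-A turned to 0.63 with the identifier block, RNAPII at CISH-3 to -0.05 with the median over non-targeted regions, and RNAPII at CISH-B and CISH-A to 0.02 and 0.17 with the median over 23. The difference between fusions turned to -0.92 (median over 23) and -0.06 (identifier block) for H3K27ac at CISH-B, and for RNAPII to 0.10 (10 times the pseudocount) and 0.85 (median) at CISH-1, 0.16 (median) at CISH-2 and 0.40 (identifier block) at CISH-3.

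Leaving out 1 library at a time gave 4 to 8 targeted and 0 to 1 non-targeted calls for HA, 0 to 2 targeted calls for H3K27ac, with 2 without dCas9-VP16(10x) IL1RN replicate 2, and 0 to 2 for RNAPII. At the CISH promoter, HA ranged from -0.05 to 0.42 (Adjacent) and from -2.27 to 0.02 (dCas9-p300(core) ERBS). H3K27ac ranged there from -0.46 to 0.90, -1.05 to 0.32, -1.29 to 0.07 and -0.20 to 1.16 with dCas9-VP16(10x) under Pools 1, 2, 3 and Adjacent, and from -0.50 to 0.05 with dCas9-p300(core) under Pool 2. RNAPII ranged there from -0.19 to 0.08, -0.55 to 0.38 and -0.16 to 0.13 with dCas9-VP16(10x) under Pool 1, Pool 3 and Adjacent, and from -0.46 to 0.69, -0.58 to 0.57, -0.34 to 0.81 and -0.20 to 0.95 with dCas9-p300(core) under Pools 1, 2, 3 and Adjacent. RNAPII at CISH-3 ranged from -0.21 to 0.45 and -0.38 to 1.20 with dCas9-VP16(10x) and dCas9-p300(core). With dCas9-p300(core), H3K27ac at CISH-A ranged from -1.56 to 1.14, and RNAPII from -0.97 to 0.89 at CISH-A and -0.91 to 0.53 at CISH-B. The difference between fusions ranged from -0.79 to 3.15, -1.49 to 0.91 and -1.20 to 2.32 for H3K27ac at CISH-1, CISH-2 and CISH-B, and from -0.31 to 0.25, -0.99 to 0.06 and -1.08 to 0.50 for RNAPII at CISH-1, CISH-2 and CISH-3.

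No label says that a replicate number marks a shared culture or day, and since not every pair of groups correlated over 0.1, the numbers were not taken to pair the samples. Over 45 pairs of groups, the correlation of same-numbered deviations was -0.65 to 0.94 for H3K27ac (33 over 0.1) and -0.62 to 0.81 for RNAPII (17 over 0.1). For H3K27ac the number followed the identifier, since in 8 of 10 groups replicate 1 carried it and replicate 2 did not. With the replicate number as a block, limma called CISH-1 (adjusted p = 0.00799 and 0.0321), CISH-2 with dCas9-p300(core) (0.0372), CISH-3 with dCas9-VP16(10x) (0.00799) and CISH-B with dCas9-VP16(10x) (0.0479) for H3K27ac, and the same 2 values for RNAPII at CISH-1 (0.0329 each). No paired analysis was possible for HA because its control is 1 library and 1 ERBS column carries no number. A count test of edgeR on recovered reads was not run, and HA was not fitted without its IL1RN library, which would leave no control. The few reads at control regions limit the H3K27ac ratios.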
